A study of Homo sapiens with 8 samples.

Results

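AP-1 is a dimer of basic leucine zipper (bZIP) proteins, and the 10 genes described here are the FOS family (FOS, FOSB, FOSL1 and FOSL2), the JUN family (JUN, JUNB and JUND) and 3 further immediate early genes (EGR1, IER2 and IER3). They were chosen by gene symbol from the 61806 genes of the deposited table, and all 10 were found once each. They were measured in N/TERT-1 cells, an immortalized line of human epidermal keratinocytes of wild-type genotype, by sequencing of polyadenylated RNA. The cells were exposed for 4 hours either to ethanol, the solvent (4 libraries), or to O/A (4 libraries), a mixture of oligomycin, an inhibitor of the mitochondrial ATP synthase, and antimycin A, an inhibitor of complex III. Neither the dose nor the time is part of the labels. All libraries come from 1 cell line, kept in serum-free keratinocyte medium with recombinant epidermal growth factor and bovine pituitary extract. No library was untreated, so the ethanol libraries are the background for every value.

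Immediate early genes are transcribed from factors already present in the cell, without new protein synthesis, and their mRNAs are usually short-lived. FOS proteins need a bZIP partner such as a JUN protein, while JUN proteins can also pair with each other and with ATF proteins. Mitogen-activated protein kinases (ERK, JNK and p38) act on the factors that bind these promoters, among them serum response factor with its ELK partners and CREB, and they also phosphorylate FOS and JUN proteins. In keratinocytes AP-1 is known for its part in migration, wound repair and the expression of proteases, cytokines and differentiation genes.

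Of the 14893 genes with enough counts to be tested, 15.8% were upregulated and 18.9% were downregulated in O/A, called by the quasi-likelihood test of edgeR (adjusted p no higher than 0.05) together with a log2 fold change, log2(FC), beyond 0.25 in either direction. All 10 AP-1 and immediate early genes could be tested. Of these, 8 were upregulated and FOSL2 was downregulated, while JUN stayed within the fold change threshold. Their median log2(FC) was 0.96, against 0.00 for all genes tested. Every O/A library lay above every ethanol library for 9 of the 10, a pattern shown by 22.8% of the genes tested, and FOSL2 showed the opposite pattern, which 24.8% of the genes tested share. The whole table moves widely in O/A, so a call by itself says little about a gene, and the sizes below carry more. In bulk RNA a change per cell and a change in the number of cells that express a gene cannot be told apart.

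**Figure D1:**
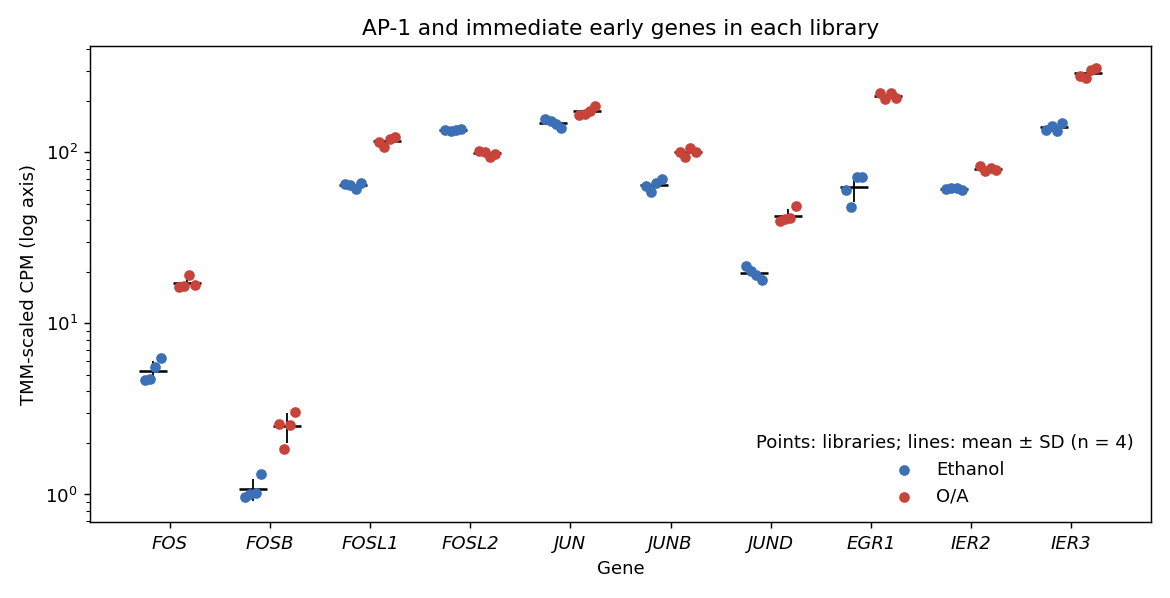
Library-scaled counts (CPM, log axis) of the 10 genes in each of 4 ethanol and 4 O/A libraries, with blue (ethanol) and red (O/A) points for libraries and black lines for the mean ± SD. The O/A points of 9 genes sit above all their ethanol points, and those of FOSL2, at 94.5 to 101.5 CPM, sit below.

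The promoters of 8 of the 10 genes are held in the RefSeq table used here (GRCh38.p14, 250 bases before to 50 bases after the start site), and those of FOSL1 and IER3 are not in it. Promoters of 4 genes are shown, those of EGR1 and FOS because they had the largest increases, that of JUND because it moved most in the JUN family, and that of FOSL2 because it alone fell. Each is written 5′ to 3′ on the strand of the gene. Capitals mark CArG boxes (the site of serum response factor) and TGACG on either strand (the core of the cAMP response element, CRE) in EGR1, TGACG and TATAAA in FOS, TGACGTCA (a full CRE) and TGACG in JUND, and TGANTCA (the AP-1 site) and TGACG in FOSL2. The windows are chr5:138465229-138465528 on the plus strand for EGR1, chr14:75278578-75278877 on the plus strand for FOS, chr19:18281573-18281872 on the minus strand for JUND and chr2:28392608-28392907 on the plus strand for FOSL2.
EGR1: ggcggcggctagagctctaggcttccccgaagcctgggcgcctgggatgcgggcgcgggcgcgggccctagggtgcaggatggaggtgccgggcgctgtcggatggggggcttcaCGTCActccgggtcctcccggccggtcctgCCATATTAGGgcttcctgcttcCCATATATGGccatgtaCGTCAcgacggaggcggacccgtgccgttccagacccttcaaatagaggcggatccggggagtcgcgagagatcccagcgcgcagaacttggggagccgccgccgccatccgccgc
FOS: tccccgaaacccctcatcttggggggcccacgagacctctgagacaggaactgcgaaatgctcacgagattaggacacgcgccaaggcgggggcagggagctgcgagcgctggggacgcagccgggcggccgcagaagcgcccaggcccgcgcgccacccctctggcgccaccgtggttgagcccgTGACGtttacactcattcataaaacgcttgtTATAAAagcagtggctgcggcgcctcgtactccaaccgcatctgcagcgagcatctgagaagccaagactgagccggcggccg
JUND: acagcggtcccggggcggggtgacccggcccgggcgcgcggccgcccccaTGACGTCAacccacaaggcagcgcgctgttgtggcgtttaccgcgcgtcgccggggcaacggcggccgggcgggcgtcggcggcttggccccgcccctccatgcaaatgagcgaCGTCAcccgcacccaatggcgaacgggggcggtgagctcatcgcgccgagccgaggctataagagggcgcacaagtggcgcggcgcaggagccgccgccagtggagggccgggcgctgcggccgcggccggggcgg
FOSL2: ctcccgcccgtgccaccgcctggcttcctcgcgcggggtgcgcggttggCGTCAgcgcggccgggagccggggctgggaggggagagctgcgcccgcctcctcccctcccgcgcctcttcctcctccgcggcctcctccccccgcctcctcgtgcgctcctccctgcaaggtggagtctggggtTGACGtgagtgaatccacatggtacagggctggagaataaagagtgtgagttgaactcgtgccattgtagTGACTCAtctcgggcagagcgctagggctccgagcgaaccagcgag

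EGR1 (ENSG00000120738), a zinc finger transcription factor, showed the largest increase of the 10 genes and ranked 101st of all 14893 genes tested by log2(FC). It lies on chr5:138465479-138469303 of GRCh38. In CPM, counts scaled to library size with the trimmed mean of M values (TMM), EGR1 had 59.9, 47.9, 71.8 and 71.6 in the ethanol libraries and 222.7, 205.5, 223.1 and 208.3 in the O/A libraries. The groups were far apart, and the lowest O/A library lay well above the highest ethanol library. The increase was 3.41-fold, a log2(FC) of 1.77 with a standard error of 0.12 (edgeR, adjusted p = 1.62e-05). The ethanol libraries had a coefficient of variation of 18.1%, the widest of the 10 genes in ethanol. In O/A the spread of EGR1 was smaller, with a coefficient of variation of 4.34%.

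IER3 (ENSG00000137331), a regulator of apoptosis and stress signaling, was the most abundant of the 10 genes in both conditions and doubled. It lies on chr6:30743199-30744548. The deposited values were 101.0, 107.8, 101.2 and 110.7 FPKM in ethanol and 203.6, 199.6, 221.3 and 227.6 FPKM in O/A. FPKM scales a count for exonic length as well as for the library total, so it can be compared between genes, within the limits of the length used. Every O/A library was far above every ethanol library, and the log2(FC) was 1.06 with a standard error of 0.046 (edgeR, adjusted p = 9.25e-11). In ethanol 98.1% of the genes tested had a lower mean FPKM than IER3, and in O/A 99.1%. A pair of genes overlap IER3 on the opposite strand, IER3-AS1, whose counts went from 21 to 31 in the ethanol group to between 45 and 69 under O/A, and HCG20, from 58 to 91 to between 135 and 179. Their log2(FC) was 1.11 each, close to that of IER3. Whether counting used strand is not given in the sources used here, so reads of these 3 genes may not be fully separated, although IER3 itself had at least 2352 counts per library.

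IER2 (ENSG00000160888), a nuclear immediate early protein on chr19:13150411-13154911, rose least among the genes called. It had 60.9, 61.8, 61.7 and 60.1 CPM in ethanol and 83.4, 77.6, 80.9 and 78.4 CPM in O/A. The groups did not overlap, and the ethanol libraries agreed within 1.03-fold. The increase was 1.31-fold, with a log2(FC) of 0.39 and a standard error of 0.038 (edgeR, adjusted p = 7.72e-13). An antisense gene without a symbol, ENSG00000267598, lies inside IER2, with 49 to 74 counts per library and a log2(FC) of 0.08 (edgeR, adjusted p = 0.679).

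FOS (ENSG00000170345), the prototype of its family, increased 3.23-fold from a low level. It lies on chr14:75278826-75282230. Its counts were 87, 84, 97 and 133 in ethanol and 284, 307, 361 and 291 in O/A. The lowest O/A library held far more FOS counts than the highest ethanol library. The log2(FC) was 1.69 with a standard error of 0.094 (edgeR, adjusted p = 1.82e-21), the 122nd highest of the genes tested. The length-scaled level of FOS was 1.69 ± 0.24 FPKM under ethanol against 5.30 ± 0.39 FPKM under O/A (SD, n = 4 libraries). In ethanol 31.7% of the genes tested had a lower mean FPKM, and in O/A 56.7%.

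FOSB (ENSG00000125740), a paralog of FOS, was close to the limit of what these libraries can measure. It lies on chr19:45467995-45475179. Its counts were 18, 18, 18 and 28 in ethanol and 45, 34, 48 and 53 in O/A. The groups did not overlap, but the lowest O/A library was only a few counts above the highest ethanol library. The log2(FC) was 1.19 with a standard error of 0.21, the largest error of the 10 genes (edgeR, adjusted p = 3.79e-06). The whole gene lies within ERCC1 on the opposite strand, a DNA repair gene with 1121 to 1549 counts per library and a log2(FC) of 0.31 (edgeR, adjusted p = 9.49e-10). Reads from the other strand would weigh most on a gene with as few counts as FOSB, and their part was not tested.

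FOSL1 (ENSG00000175592), which encodes FRA-1, was the main FOS family transcript of these cells. It lies on chr11:65892049-65900573. The deposited values were 35.1, 34.8, 32.8 and 35.6 FPKM in ethanol and 59.7, 55.9, 62.5 and 63.9 FPKM in O/A. Every O/A library exceeded every ethanol library by a wide margin relative to the spread within each group. The increase was 1.80-fold, with a log2(FC) of 0.85 and a standard error of 0.039 (edgeR, adjusted p = 4.14e-23).

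FOSL2 (ENSG00000075426), which encodes FRA-2, moved the other way. It lies on chr2:28392448-28417317. It had 135.2, 132.9, 135.4 and 136.3 CPM in ethanol and 101.5, 100.1, 94.5 and 98.0 CPM in O/A. The ethanol libraries agreed within 1.03-fold, and all O/A libraries lay below them. FOSL2 fell by 27.0%, a log2(FC) of -0.46 with a standard error of 0.032 (edgeR, adjusted p = 1.27e-17). The overlapping antisense gene FOSL2-AS1 had at most 7 counts in any library.

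JUN (ENSG00000177606), the prototype of the JUN family, was the most abundant JUN transcript in ethanol and moved least of the 10 genes. It lies on chr1:58776845-58784048. It had 157.7, 151.6, 146.3 and 139.2 CPM in ethanol and 165.8, 166.9, 174.9 and 185.7 CPM in O/A. The groups did not overlap, but the gap between them, from 157.7 to 165.8 CPM, was narrower than the full range of the ethanol libraries, 139.2 to 157.7 CPM. The log2(FC) was 0.22 with a standard error of 0.038, within the threshold, although the adjusted p-value of 1.92e-05 (edgeR) was below 0.05. Without ethanol replicate 1, the log2(FC) was 0.25, just past the threshold, so the call for JUN depends on 1 library.

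JUNB (ENSG00000171223) and JUND (ENSG00000130522) both rose, JUND more than JUNB. JUNB lies on chr19:12791486-12793315 and had 63.5, 58.4, 66.6 and 69.5 CPM in ethanol and 100.7, 93.5, 105.6 and 100.6 CPM in O/A. Its increase was 1.55-fold, with a log2(FC) of 0.63 and a standard error of 0.044 (edgeR, adjusted p = 2.28e-13). JUND, often described as the stably expressed member of the family, lies on chr19:18279694-18281622 and had 21.8, 20.1, 19.3 and 18.0 CPM in ethanol and 39.7, 40.7, 41.5 and 48.4 CPM in O/A. Its increase was 2.15-fold, with a log2(FC) of 1.11 and a standard error of 0.062 (edgeR, adjusted p = 1.17e-17). For both genes the O/A libraries stood clear of the ethanol libraries. JUNB lies inside HOOK2 on the opposite strand, a gene with 369 to 486 counts per library and a log2(FC) of 0.16 (edgeR, adjusted p = 0.0323).

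For each of the 10 genes, an exact two-sided permutation test of the 4 O/A libraries against the 4 ethanol libraries gave p = 0.0286, the smallest value that this design allows. This value follows from the lack of overlap between the groups and adds nothing to it. Of the genes tested, 22.8% separated upward and 24.8% downward in the same way. No library stood at one end for all genes. In ethanol, replicate 4 held the highest CPM for 6 of the 10 genes and the lowest for 3. In O/A, replicate 4 held the highest for 5 genes and replicate 2 the lowest for 6.

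**Figure D2:**
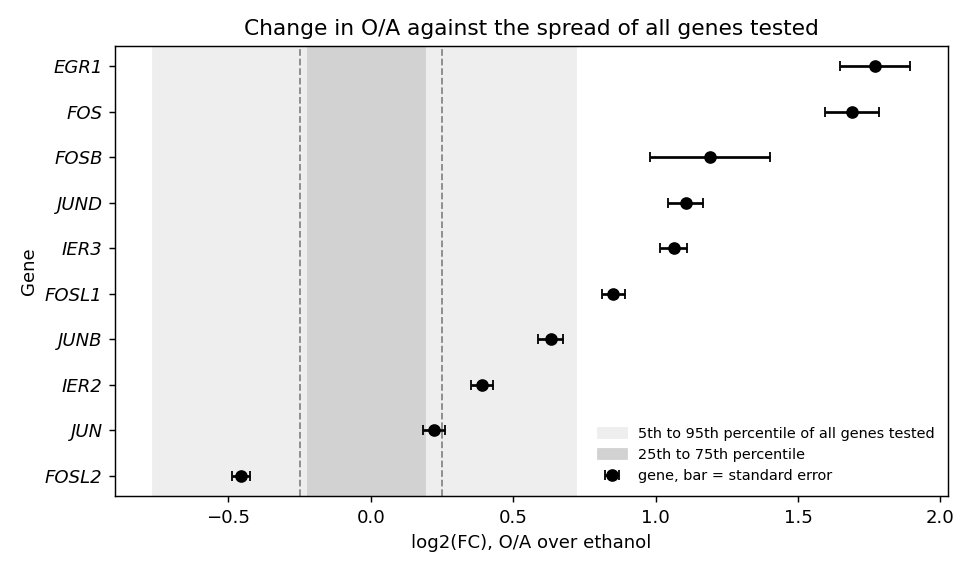
The log2(FC) of O/A over ethanol for the 10 genes, with standard errors from edgeR, against shaded ranges of all 14893 genes tested and dashed lines at the threshold of 0.25. FOSL1, IER3, JUND, FOSB, FOS and EGR1 lie above the 95th percentile of all genes, at 0.72, while FOSL2 at -0.46 lies below the 25th percentile, at -0.22, and above the 5th, at -0.76.

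Because FPKM is scaled by length, the deposited values also give the makeup of each family. The summed FPKM of the FOS family ranged from 54.1 to 57.1 under ethanol and from 75.1 to 83.0 under O/A, without overlap. FOSL1 made up 62.2 ± 1.03% of the sum in ethanol and 75.8 ± 1.13% in O/A (SD, n = 4 libraries per condition). The share of FOSL2 went from 33.8 to 35.7% in ethanol to 15.8 to 18.4% in O/A. FOS went from 3.04 ± 0.41% to 6.65 ± 0.44%, and FOSB stayed below 1% in every library, with a highest share of 0.65%. The exonic lengths behind these values are 3186 bases for FOS and 5553 for FOSB. Their canonical transcripts in GENCODE v44 have 2104 and 3775 bases, so the levels and shares of both depend on the length used. Despite the size of the increase in FOS, the FOS family in O/A thus consisted largely of FOSL1 mRNA.

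The summed FPKM of the JUN family was 85.4 to 90.4 in ethanol and 116.6 to 128.9 in O/A. In ethanol JUN held the largest share, 47.4 ± 2.18%, followed by JUNB with 40.7 ± 2.96% and JUND with 11.9 ± 0.80% (SD, n = 4). In O/A the order of the first 2 changed in these values, with 43.9 ± 1.68% for JUNB, 38.4 ± 0.70% for JUN and 17.7 ± 1.03% for JUND. The exonic length behind the FPKM of JUN is 3624 bases, while its canonical transcript in GENCODE v44 has 3257 bases. A shorter length raises the level of JUN, so whether JUN lies below JUNB in each single O/A library depends on the length used. The ratio of both sums, JUN family over FOS family, was 1.52 to 1.64 in ethanol and 1.51 to 1.55 in O/A, and these ranges overlapped. The plot of summed FPKM shows the FOSL2 part shrinking while the FOSL1, JUNB and JUND parts grow.

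**Figure D3:**
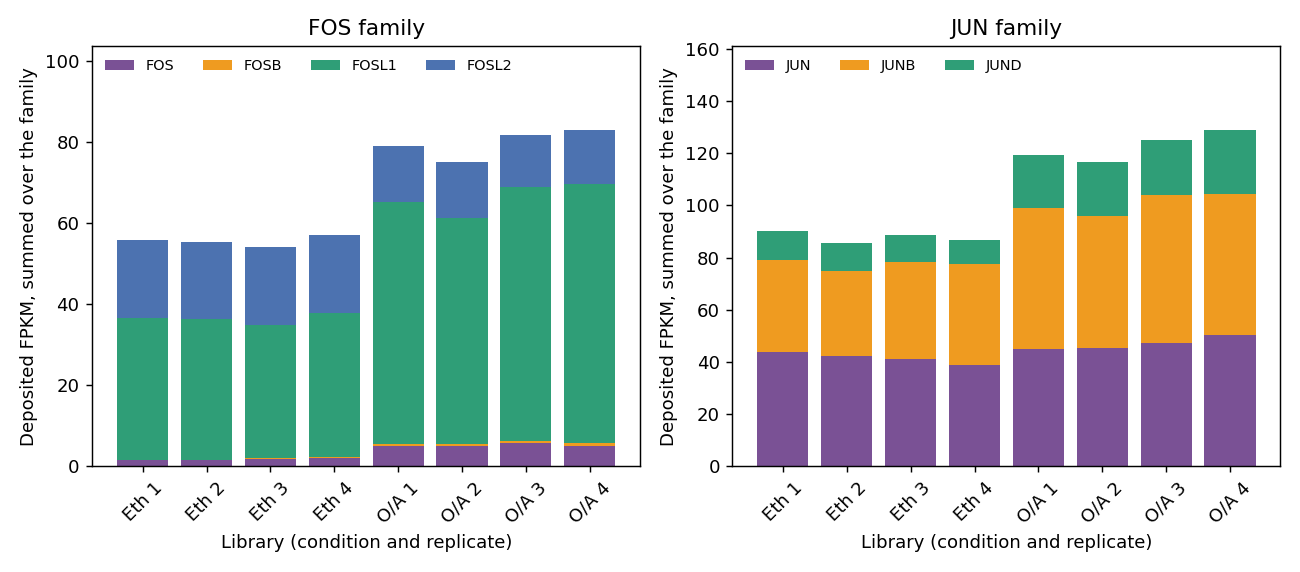
Deposited FPKM of each FOS family gene (left) and JUN family gene (right), stacked for each of the 4 ethanol and 4 O/A libraries. The FOS family sums rise from 54.1 to 57.1 in ethanol to 75.1 to 83.0 in O/A with a smaller FOSL2 part, and the JUN family sums rise from 85.4 to 90.4 to 116.6 to 128.9 with a JUN part of 41.6 FPKM on average in ethanol and 47.0 FPKM in O/A.

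Whether paralogs moved unequally was tested on the log2 ratio of their FPKM values (pseudocount 0.1) within each library. The pseudocount weighs on FOSB, whose mean level in ethanol was 0.20 FPKM. Of the 9 pairs within the families, 8 differed between conditions without overlap of the libraries (exact two-sided permutation test, p = 0.0286, or 0.0321 after Benjamini-Hochberg adjustment over the 9 pairs). The pairs share genes, so they are not independent tests. The ratios of FOS, FOSB and FOSL1 to FOSL2 had to separate, because the genes themselves had separated in opposite directions. For those ratios only the size of the difference is informative. FOSL1 exceeded FOSL2 by 1.83, 1.84, 1.70 and 1.84 times in ethanol and by 4.26, 4.03, 4.80 and 4.73 times in O/A, a difference of 1.30 on the log2 scale. The ratio of FOS to FOSL2 moved most, by 2.10 on the log2 scale, and that of FOS to FOSL1 moved by 0.80. In the JUN family, JUN over JUND went from 3.83 to 4.08 times in ethanol down to 2.04 to 2.24 times in O/A, a difference of -0.88. In deposited FPKM, JUN exceeded JUNB in every ethanol library, by up to 1.31 times, and was below it in every O/A library, at 0.83 to 0.93 of its level. That JUN was below JUNB in every single O/A library depends on the length used for JUN. The change in the ratio does not, with a difference of -0.41 on FPKM and -0.415 on counts. JUNB over JUND differed by -0.46. The remaining pair, FOSB over FOSL1, differed by 0.06 with overlapping libraries (exact permutation test, p = 0.571), but by 0.35 on counts without FPKM scaling (exact permutation test, p = 0.0571), so this ratio is imprecise. On counts, FOS over FOSB differed by 0.51 in place of 0.74, and FOSB over FOSL2 by 1.65 in place of 1.36.

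The promoter windows differed in the motifs they hold, as the plot of motif positions shows. TGACG, on either strand, is present in all 8 windows held and in 24.6% of all 35116 windows of the same length, or 31.8% of the 15453 windows of genes tested. Further shares are given in this order, for all windows and for those of genes tested. TGACG ends 60 bases before the start site in FOS and 56 bases before it in FOSB. The CArG box was found in 1 of the 8 windows, that of EGR1, which holds 2, from 105 to 96 and from 83 to 74 bases before the start site. A CArG box stands in 1.29% and 1.08% of windows. TGANTCA was found in 1 of the 8, just after the start site of FOSL2, against 7.71% and 5.55%, and TGACGTCA in 1, that of JUND, against 1.85% and 2.80%. The full CRE of JUND contains TGACG on both strands, so these matches overlap. TATAAA, the TATA motif, stands in the windows of FOS, FOSB and JUNB and in 11.5% and 6.61% of windows. GCGNGGGCG, a motif bound by EGR proteins, stands in that of EGR1 and in 9.43% and 14.3% of windows, and TGATGNAA, a core of the CEBP-ATF response element, in none of the 8 and in 3.62% and 2.01% of windows. These are matches of letters, both strands searched, and binding was not measured. The RefSeq start site of FOSL2 lies 410 bases downstream of the 5′ end in the deposited table, while for the other 7 genes both differ by at most 2 bases.

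**Figure D4:**
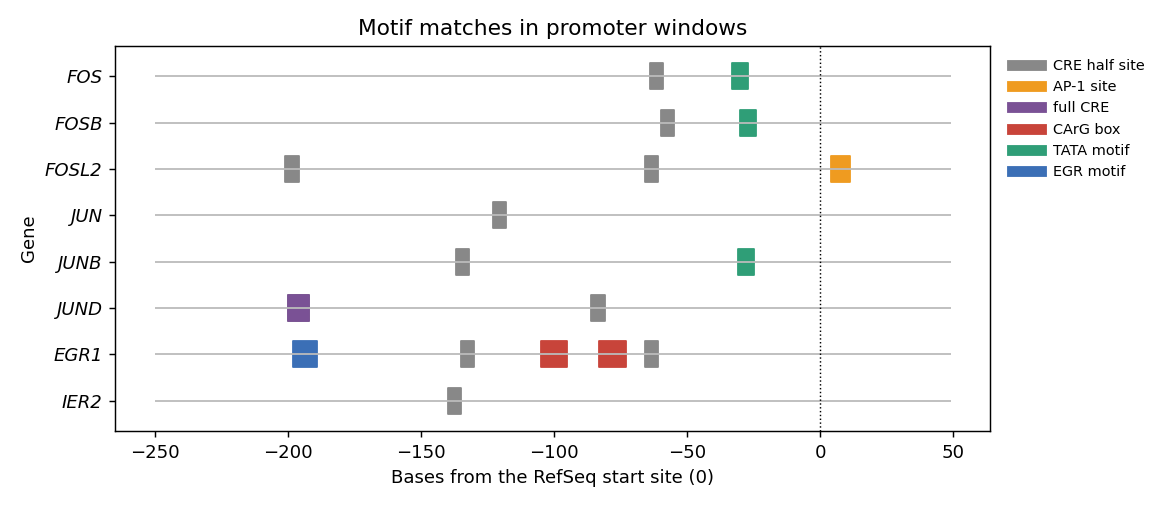
Positions of motif matches (coloured boxes) in the 8 promoter windows, in bases from the RefSeq start site at 0. The CRE core stands in each window, whereas within these windows the CArG boxes are seen in EGR1 and the AP-1 site in FOSL2. Sites farther upstream were not searched.

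The genes have few exons, while the lengths of their transcripts vary. In the canonical transcripts of GENCODE v44 the 10 genes have a median of 2 exons, against 9 for the 12240 coding genes tested. JUN, JUNB and JUND each consist of a single exon, as do 1.93% of the coding genes tested, and EGR1, IER2 and IER3 have 2 exons. The transcripts run from 1237 bases in IER3 to 6713 bases in FOSL2, and those of FOSB and FOSL2 are longer than the median of the coding genes tested, 3372 bases. ATTTA, the core of AU-rich elements that shorten mRNA life, occurred at a median of 1.62 per kilobase of 3′ untranslated region in the 10 genes and 1.75 in all coding genes tested. The densest were IER3, with 6 copies in 737 bases, and FOS, with 5 copies in 806 bases. The longer element TTATTTATT was found in FOS and FOSL2, which moved in opposite directions, and in 9.72% of the coding genes tested.

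AP-1 proteins also pair with other bZIP proteins, and of 12 such partners 9 were tested, with a median log2(FC) of 0.51. Of these 9 partners, 6 were upregulated and 1, MAF, was downregulated. For comparison, 15.8% of all genes tested were upregulated and 18.9% were downregulated. JDP2, a repressive partner of JUN, rose most, from 7.01 to 7.76 CPM under ethanol to 40.5 to 46.1 CPM under O/A (log2(FC) 2.58, standard error 0.066, edgeR, adjusted p = 1.14e-35). ATF3, a stress-induced factor that dimerizes with JUN proteins and is also a known gene of the integrated stress response, went from 40.1 to 47.5 CPM to 162.8 to 184.3 CPM (log2(FC) 1.98). The small MAF genes MAFF (1.74) and MAFG (1.47), whose proteins lack an activation domain, rose as well. Each of these 4 genes had O/A libraries well above all ethanol libraries. MAF, with 5 to 34 counts per library, had a log2(FC) of -1.40 (standard error 0.31, edgeR, adjusted p = 1.49e-04).

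Other immediate early genes were divided. Of 26 on the list 21 were tested, 9 of them upregulated and 5 downregulated, with a median log2(FC) of 0.24. The shares of all genes tested were 15.8% upregulated and 18.9% downregulated. PPP1R15A, the stress-induced regulatory subunit of an eIF2alpha phosphatase, rose most, with a log2(FC) of 2.32 (standard error 0.028, edgeR, adjusted p = 6.94e-50). TRIB1, a pseudokinase, had a log2(FC) of 1.78, and KLF4, a transcription factor of the epidermal barrier, 1.72. CCN1, a matricellular protein gene controlled by serum response factor and YAP, fell from 261 to 294.5 CPM under ethanol to 81.6 to 96.9 CPM under O/A (log2(FC) -1.67). The other downregulated genes, named after their values were seen, were IER5L (-1.10), CCN2 (-0.99), MYC (-0.67) and SGK1 (-0.33). EGR3, a paralog of EGR1, rose from 8 to 17 counts under ethanol to between 24 and 31 (log2(FC) 1.32), whereas EGR2 and EGR4 had too few counts to be tested.

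Of the kinases and promoter-binding factors upstream of these genes, all 23 on the list were tested, and 4 were upregulated and 3 downregulated, close to the shares of 15.8% and 18.9% for all genes tested. Their median log2(FC) was 0.09. The ternary complex factors ELK4 and ELK1, partners of serum response factor, had log2(FC) values of 0.69 and 0.42 (edgeR, adjusted p = 5.53e-20 and 2.29e-10). The actin-regulated coactivators of serum response factor fell, MRTFA by 0.37 and MRTFB by 0.40 on the log2 scale. The remaining calls, named after their values were seen, were MAPK8, which encodes JNK1 (0.31), NAB1, a corepressor of EGR proteins (0.25), and MAPK14, which encodes p38alpha (-0.32). SRF itself had a log2(FC) of -0.07 (edgeR, adjusted p = 0.154), and the kinase gene MAPK3 had 0.00 (edgeR, adjusted p = 0.979). Kinase activity was not measured.

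Genes known as AP-1 targets in keratinocytes included some of the largest changes. Of 22 on the list 20 were tested, 10 upregulated and 3 downregulated, with a median log2(FC) of 0.46. Among all genes tested the shares were 15.8% and 18.9%. HBEGF, a ligand of the EGF receptor, rose from 23.4 to 27.97 CPM under ethanol to 342.5 to 371.7 CPM under O/A (log2(FC) 3.85, standard error 0.040, edgeR, adjusted p = 3.59e-43). VEGFA, an angiogenic factor that many stress pathways also induce, had a log2(FC) of 2.74. The collagenase gene MMP1 went from 53 to 83 counts to 285 to 407 counts (log2(FC) 2.53), and MMP10, a stromelysin gene, from 88 to 109 counts to 424 to 559 (2.46). The downregulated genes included CCND1, a G1 cyclin (-0.99), and IVL, a cornified envelope protein (-0.31), both named after their values were seen. Differentiation genes of the SPRR family on the list (SPRR1A, SPRR1B, SPRR2A and SPRR3) were not called.

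**Figure D5:**
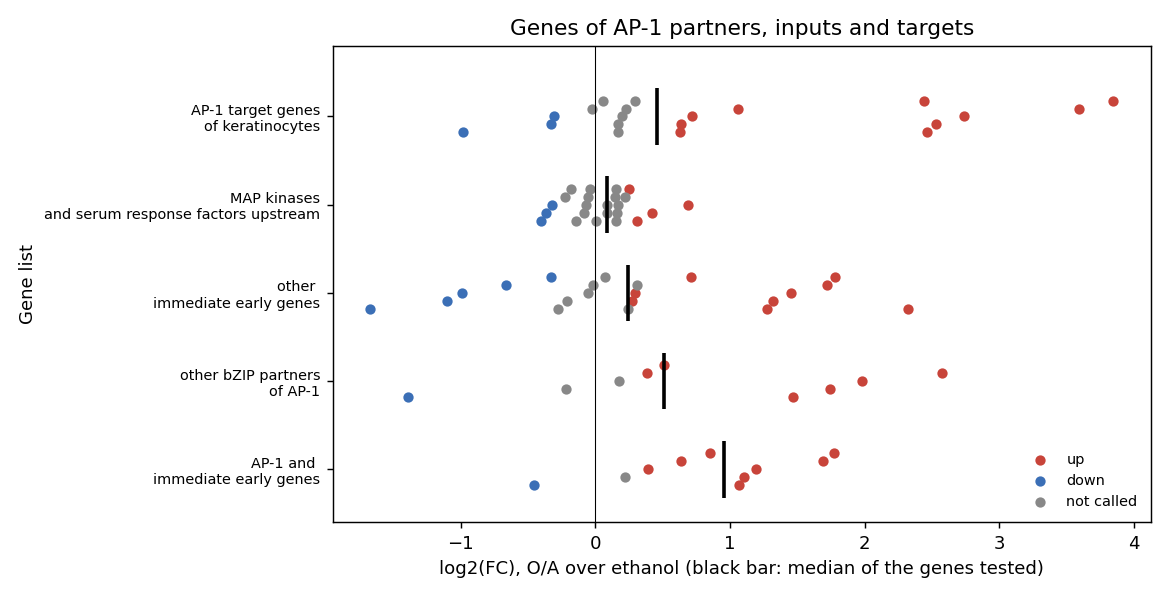
The log2(FC) of O/A over ethanol for each gene tested in 5 groups, red for upregulated, blue for downregulated and grey for not called, with a black bar at the median of each group. Medians are 0.96 for AP-1 and immediate early genes, 0.51 for other bZIP partners, 0.24 for other immediate early genes, 0.09 for upstream kinases and factors and 0.46 for AP-1 targets.

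The profile of EGR1 over the 8 libraries was compared with those of 11645 other genes with a mean of at least 1 FPKM in a condition, as the root mean square difference of centred log2(CPM + 1). The closest were CEBPG (0.134), FICD (0.143), UNC5B (0.147), TNFSF15 (0.149) and TRIB1 (0.153), against 0.904 for the spread of EGR1 about its own mean. Their log2(FC) lay between 1.76 and 2.13. These distances describe libraries of only 2 conditions and largely restate a similar change.

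As to the libraries as a whole, the total count was 17210404 to 20999927 per library. Within a condition the libraries differed beyond sampling noise (chi-square over its degrees of freedom 1.73 to 5.33), so none was counted as a repeat of another. All 6 keratinocyte markers were detected in every library, with a summed level of 2841 to 3097 FPKM in ethanol and 2474 to 2623 in O/A. Of these, KRT5 was downregulated (log2(FC) -0.30) and the other 5, KRT14, TP63, ITGA6, ITGB4 and COL17A1, were not called. The 15 markers of fibroblasts, melanocytes, endothelial and immune cells summed to 3.34 to 3.97 FPKM in ethanol and 3.58 to 4.08 in O/A, and 2 of them, MLANA and TYR, were at 0 counts in all libraries. COL1A1 made up most of that sum, at 2.64 ± 0.25 and 2.46 ± 0.10 FPKM (SD, n = 4). Of the 3 of these markers tested, CD68, a lysosomal protein of macrophages that other cells also express, was upregulated, from 15 to 27 counts under ethanol to 27 to 33 under O/A (log2(FC) 0.56). The part of such cells in the values above was not tested.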

How the data were processed

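Polyadenylated RNA of 8 N/TERT-1 libraries was sequenced, 4 per condition by their labels, from 4 independent experiments. The submitters' processing notes name HISAT2 2.0.1, HTSeq 0.6.1 and GRCh38.p13. The authors deposited counts per gene and FPKM values, which equal the counts over exonic length and library total to within 0.005. The Ensembl release and strand setting are not given in the sources used here. A second deposited file, the authors' DESeq2 comparison (fold changes and p-values), was not used.

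Genes reaching 10 counts in 4 or more libraries were tested with edgeR 4.0.16 (R 4.3.3; TMM, robust quasi-likelihood test, Benjamini-Hochberg over 14893 genes). Standard errors are the log2(FC) over the root of the F statistic. CPM are TMM-scaled. Alternatives were DESeq2 1.42.0, limma 3.58.1 on log2(FPKM + 0.1), log2(FPKM + 1) or quantile-normalized counts, median-ratio scaling, other filters and thresholds, the replicate number as a block and each library left out. Scripts were tested on simulated data.

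The 10 genes and the other lists were chosen with earlier results of these data known. Named besides the 10 genes are, per list, the 4 called genes with the largest absolute log2(FC) and at least 1 FPKM in a condition, the 5 profiles closest to EGR1 and genes overlapping the 10, unless said otherwise. MAF, EGR2, EGR3, EGR4, SRF, MAPK3, the SPRR genes and the cell type markers were named outside this rule. Some items are not reported here. Coordinates are those of the deposited table, equal to GENCODE v44 for all 10 genes. Depth, 17210404 to 20999927 counts per library, leaves genes such as FOSB imprecise.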

Additional observations from a re-analysis of the deposited data

Results flagged for a closer look

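In 38 groups of 4 libraries (the CPM of 10 genes and the log2 ratios of 9 paralog pairs, each in both conditions), 4 held 1 library far from the other 3 by Dixon's test, where chance gives about 1 in 20, or 1.9 groups. Replicate 3 of O/A stood apart for FOS, at 19.1 CPM where the others lay between 16.3 and 16.7. Replicate 4 of ethanol stood apart for FOSB, at 1.32 CPM where the others lay between 0.97 and 1.02. The same library had a log2 ratio of FOSB to FOSL2 of -5.83, against -6.10 to -6.06. The log2 ratio of FOSL1 to FOSL2 was 0.76 in ethanol replicate 3, against 0.88 in each of the others. None of these gaps closes the distance between the conditions.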

How the results depend on the processing

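The log2(FC) of each of the 10 genes kept its direction under every alternative that could test it, and at the threshold of 0.25 all but JUN also kept their call. A minimum mean of 5 FPKM removed FOS and FOSB from the test. Leaving out each library in turn gave 0.19 to 0.25 for JUN, which passed the threshold without ethanol replicate 1. FOSB had the widest range, down to 0.27 on log2(FPKM + 1), where the pseudocount exceeds its level, and between 1.08 and 1.32 with libraries left out. FOSL2 stayed between -0.50 and -0.43 throughout. With pseudocount 1 the ratio of FOSB to FOSL1 reversed, to -0.52, that of FOS to FOSL1 dropped to 0.44 and that of FOSB to FOSL2 to 0.74. With libraries left out, FOSB to FOSL1 lay between 0.004 and 0.131.

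Raising the threshold to an absolute log2(FC) of 1 left 5 of the 10 genes called (FOS, FOSB, JUND, EGR1 and IER3, named after their values were seen), 8 other immediate early genes, 7 AP-1 targets, 0 upstream kinases and factors and 797 genes in all, of the 5165 called. With no fold threshold 7999 genes and 13 upstream genes were called, and with a mean FPKM of at least 5, where fewer genes are tested, 2183 and 4. The median log2(FC) of all genes moved by less than 0.1 under every scaling. Libraries with the same replicate number did not deviate together (correlations of 0.081, 0.011, -0.090 and 0.164 over 9399 genes). With the replicate block 5160 genes were called, 5117 of them shared, and the calls of the 10 genes were as without it.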
